A study of Mus musculus with 60 samples.

Results

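The forkhead genes encode transcription factors that share a winged-helix DNA-binding domain. Members were the genes of the deposited RNA count table whose symbol is Fox, a letter from a to s and a number, without antisense transcripts. They came to 44 of 23127 genes, and all 44 matched the RefSeq gene table. Of these 44, 17 had 10 or more counts in at least 2 libraries and were tested together with all other genes above that filter, 13744 in all. A further 25 members fell below the filter and 2, Foxb2 and Foxe3, had no count in any library.

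The series holds 60 samples from mouse embryos of the outbred ICR strain, of which the 6 RNA libraries were analysed here. Embryo explants had been kept for 48 hours in N2B27, a serum-free medium. One arm received EPZ005687, an inhibitor of EZH2, the enzyme that places the repressive histone mark H3K27me3. The other arm received an equal volume of the solvent DMSO. All 6 libraries therefore come from cultured tissue. RNA was taken from the anterior (A) and posterior (P) embryonic parts and from the extraembryonic part (ExE), with 1 library for each region and treatment. The labels give neither the stage at the start of culture nor how many embryos a library holds, and no genotype or transgene is named. Regions therefore stand in for repeats of the treatment, and every p-value rests on the spread among these 6 libraries, with variance pooled over genes.

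Forkhead proteins bind DNA at short sites around the core TGTTT, and several can open compact chromatin. In the gastrula they mark lineages: Foxa genes the endoderm and node, Foxc and Foxf genes the mesoderm, and Foxb1 neural tissue. Other members, among them Foxo, Foxk, Foxj, Foxn and Foxp genes, act in many cell types, in nutrient response, cell cycle control and repression.

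Totals ran from 1000342 to 5812535 counts. Levels are given in CPM, reads per 1e+06 counts of the library, in the order A, P, ExE. No read at all still allows 3 counts, or 0.516 CPM at the highest total and 3 CPM at the lowest. Such limits and all intervals cover counting error only. A fold above this floor of 3 counts divides the CPM of the higher library by it, on library totals. It leaves out the counting error of the higher library and is not a lower bound. The arms differed in more than the agent. The 3 libraries of an arm share a code in the deposited column names that differs between arms. Xist, the RNA of the inactive X chromosome in female cells, stood at 134 to 258 CPM under DMSO and at 6.90 to 40.1 CPM under EPZ005687. The Y-linked gene Eif2s3y stood at 0 to 0.172 CPM under DMSO and at 57.0 to 225 CPM under EPZ005687, so the sex makeup of the embryos differed between arms as well. Actb, the cytoplasmic actin gene, stood at 44698 to 52009 CPM against 657 to 1328 CPM, and the ribosomal RNA precursor Rn45s at 538 to 1091 against 5209 to 65414 CPM. Xist, Eif2s3y and Rn45s were chosen after their values were seen. Treatment, embryo sex and handling cannot be told apart in any comparison of the arms below. The region labels were checked against markers. Neural and anterior ectoderm markers summed to 2436 (DMSO) and 793 CPM (EPZ005687) in A and to 128 and 141 CPM in P. Visceral endoderm markers summed to 21458 and 13482 CPM in ExE, while Cdx2, a marker of trophoblast, had 0 counts in both ExE libraries and Elf5 stood at 0.172 and 3.01 CPM. Of the other trophoblast markers, Eomes stood at 1.72 and 7.02 CPM, Tfap2c at 0.516 and 4.51, Tpbpa at 0.172 and 4.51, Esrrb at 0 and 0.501 and Gata3 at 8.95 and 4.01 CPM in ExE, while the epithelial keratin Krt8 stood at 1033 and 1919 CPM. Primitive streak markers went against the A label with EPZ005687: the 6 genes summed to 210 CPM in A and 81.0 CPM in P, against 13.5 and 27.5 CPM with DMSO. The streak gene T made up nearly all of this, at 203 (A) and 48.8 CPM (P) under EPZ005687 and 0 and 19.3 CPM under DMSO. Blood and endothelium markers were highest in P under DMSO and in ExE under EPZ005687. The 9 genes summed to 8399 (P) and 413 CPM (ExE) under DMSO and to 1368 and 34711 CPM under EPZ005687. Whether P and ExE held the same tissue in both arms was not tested.

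The promoters of 4 members are shown because the results turn on these genes: Foxn3 passed the treatment test, and Foxa1, Foxa2 and Foxa3 were lowest in A in both arms. Each line gives the 250 bases before a RefSeq transcription start (GRCm38.p6, the assembly also called mm10), 5′ to 3′ on the gene's own strand, which is the minus strand for all 4. Capitals mark TGTTT or, for the other strand, AAACA. The windows are chr12:57546112-57546361 (Foxa1), chr2:148046970-148047219 (Foxa2), chr7:19023540-19023789 (Foxa3) and chr12:99450075-99450324 (Foxn3). Those of Foxa1 and Foxn3 lie at a start inside the annotated gene.
Foxa1: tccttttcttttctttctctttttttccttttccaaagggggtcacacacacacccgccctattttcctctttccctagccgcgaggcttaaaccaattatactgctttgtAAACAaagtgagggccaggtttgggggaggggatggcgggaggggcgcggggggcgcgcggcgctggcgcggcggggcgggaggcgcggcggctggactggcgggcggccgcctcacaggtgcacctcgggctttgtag
Foxa2: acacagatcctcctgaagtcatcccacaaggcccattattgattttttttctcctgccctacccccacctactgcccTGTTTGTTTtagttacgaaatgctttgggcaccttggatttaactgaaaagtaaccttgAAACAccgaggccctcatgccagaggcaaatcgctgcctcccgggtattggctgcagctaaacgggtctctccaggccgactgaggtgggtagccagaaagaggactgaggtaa
Foxa3: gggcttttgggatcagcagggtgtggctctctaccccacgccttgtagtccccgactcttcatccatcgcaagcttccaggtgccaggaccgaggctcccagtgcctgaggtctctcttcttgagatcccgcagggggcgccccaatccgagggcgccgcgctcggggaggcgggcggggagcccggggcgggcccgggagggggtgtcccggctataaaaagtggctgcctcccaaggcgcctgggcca
Foxn3: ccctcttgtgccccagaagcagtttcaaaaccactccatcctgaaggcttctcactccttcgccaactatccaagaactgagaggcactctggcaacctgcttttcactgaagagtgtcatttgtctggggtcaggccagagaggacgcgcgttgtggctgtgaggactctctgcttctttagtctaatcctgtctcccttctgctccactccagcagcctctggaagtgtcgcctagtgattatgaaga
In the Foxa1 window the marked letters are part of GTAAACA, the full forkhead motif TGTTTAC read on the other strand. The Foxa2 window holds the core 3 times, a pair of these overlapping, and those of Foxa3 and Foxn3 hold none.

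A promoter window of 300 bases (250 before and 50 after the start) was listed for 28 of the 44 members, and Foxn2 had none. These windows were rich in G and C, with a median of 62.8% against 52.7% over all 27025 promoters listed. Their median number of CG dinucleotides was 22 against 7. Both strands were searched for each motif, and TGTTT lies inside the longer forms. TGTTT was present in 13 of 28 members and in 50.8% of all promoters, TGTTTAC in 1 of 28 (Foxa1) and in 3.52%, and TGTTTGC in 2 of 28 (Foxj3 and Foxp1) and in 5.04%. The GC box GGGCGG was found in 21 of 28 members and in 35.9% of all promoters, and CCAAT in 14 of 28 and in 38%. A match describes letters in a window and is not evidence of binding.

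In reads, the family as a whole summed to 718, 773 and 811 CPM under DMSO and to 298, 502 and 390 CPM under EPZ005687. The sums of the arms did not overlap, and Foxn2 and Foxn3 made up most of the gap. Together they held 53.3%, 54.3% and 52.1% of the family's reads under DMSO for A, P and ExE, and 14.4%, 11.6% and 16.0% with EPZ005687. Without them the family summed to 335, 353 and 388 CPM under DMSO and 255, 444 and 328 CPM under EPZ005687, and the arms overlapped.

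**Figure D1:**
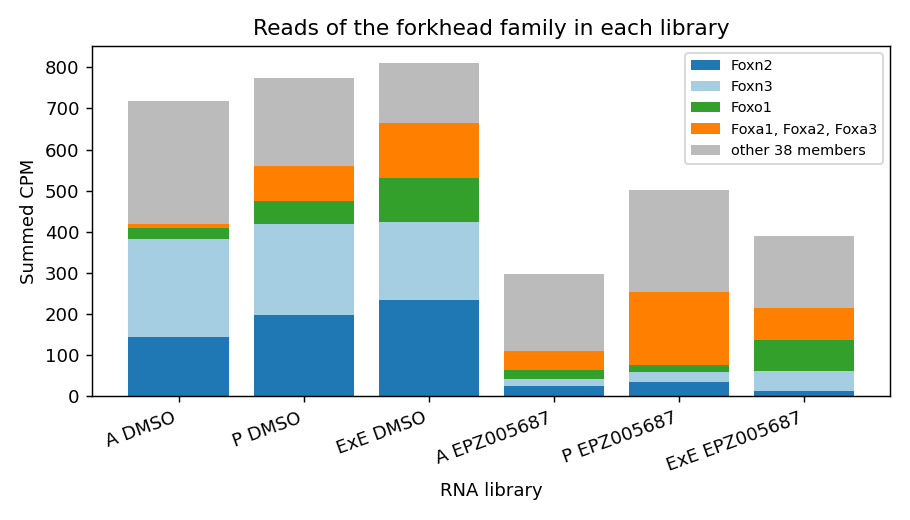
Summed CPM of the forkhead family in each of the 6 RNA libraries (1 bar per library), split into Foxn2, Foxn3, Foxo1, the 3 Foxa genes and the other 38 members. Foxn2 and Foxn3 take 52.1% to 54.3% of each DMSO bar and 11.6% to 16.0% of each EPZ005687 bar.

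The first comparison asks how members differed between the EZH2 inhibitor and its solvent over the 3 regions. Foxn2 and Foxn3 were both lower with EPZ005687, and no member was higher at the threshold. That is 2 of 17 tested members lower, where 1.48% of all tested genes were lower, and 0 of 17 higher, where 0.0509% of all were; edgeR's adjusted p had to be under 0.05. With no adjustment, at p under 0.05, 3 members were lower and 0 higher, and 5.95% of all tested genes were lower. DESeq2 called the same 2 members lower and 0 higher, where it called 3.11% of all tested genes lower and 1.05% higher. So did limma-voom, where 2.66% of all were lower and 0.233% higher.

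Foxn3 (chromosome 12, 99190081 to 99563667) encodes a repressor that recruits the Sin3 complex and acts in cell cycle checkpoints. It stood at 238, 223 and 189 CPM under DMSO and at 17.0, 23.0 and 48.6 CPM under EPZ005687. Every DMSO library lay above every EPZ005687 library by a wide margin. The means were 217 ± 25 and 29.5 ± 16.8 CPM (SD, n = 3 regions). Foxn3 fell by 3.41 on the log2 scale (SE 0.565, edgeR adjusted p = 0.013), and it passed under every alternative run, with an adjusted p of at most 0.0475 (library totals as the scaling).

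Foxn2 (chromosome 17, 88440704 to 88490533), a related member of the same subfamily, stood at 145, 197 and 233 CPM under DMSO and at 26, 35.4 and 14.0 CPM under EPZ005687. The arms again did not overlap, with means of 192 ± 44.5 and 25.2 ± 10.7 CPM (SD, n = 3 regions). Foxn2 fell by 3.39 on the log2 scale (SE 0.618, edgeR adjusted p = 0.016). This call rested on ExE: the edgeR adjusted p was 0.0735 without the ExE DMSO library (log2 fold change -2.75), 0.0754 without the ExE EPZ005687 library (-2.73) and 0.134 with A and P only (-2.71). Among the 203 genes that were lower at the threshold, Foxn3 and Foxn2 ranked 111 and 112 by size of the fold change, close to the median of -3.49 over those genes.

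Region by region, the log2 ratio of Foxn3 was -4.15 in A (interval -5.02 to -3.53), -3.38 in P (-3.87 to -3.01) and -2.62 in ExE (-2.96 to -2.35). For Foxn2 it was -2.85 in A (-3.54 to -2.31), -2.60 in P (-2.98 to -2.28) and -4.65 in ExE (-5.34 to -4.20). The fall was thus smallest in ExE for Foxn3 and largest in ExE for Foxn2. These are 95% conditional exact binomial intervals of the counts of 1 library against 1, with no replicate check. The edgeR interaction of treatment with ExE was 1.16 for Foxn3 (SE 1.37, adjusted p = 1) and -1.98 for Foxn2 (SE 1.40, adjusted p = 1), so neither difference between regions passed. Of the reads of both genes, Foxn2 held 37.8%, 46.9% and 55.2% under DMSO for A, P and ExE and 60.5%, 60.6% and 22.4% with EPZ005687. The Clopper-Pearson interval of the last share was 15.4% to 30.7%, and in A with EPZ005687 it was 44.4% to 75.0%, where 26 and 17 reads stood behind it.

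Among genes that act with FOXN3, FOXN2, FOXP or FOXK proteins, none passed. The list of FOXN partners (Men1, Ehmt1, Sin3a, Snw1) had 0 of 4 genes past the threshold in either direction and a median log2 fold change of -0.54. The list of FOXP and FOXK partners had 0 of 8, with a median of -0.03, beside a median of 0.20 over all tested genes.

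Foxp1 (chromosome 6, 98925342 to 99522746), a repressor with a zinc finger and a leucine zipper beside its forkhead domain, stood at 52.2, 73.0 and 24.1 CPM under DMSO and at 18, 28.5 and 16.0 CPM under EPZ005687. Each region was lower with EPZ005687, though in CPM the P library with EPZ005687 lay above the ExE library with DMSO. Its log2 fold change of -1.57 (SE 0.640) had an edgeR adjusted p of 0.48 and did not pass. Foxo1, which is held out of the nucleus by insulin signalling and drives stress response genes, stood at 27, 55.1 and 109 CPM under DMSO and at 21.0, 18.4 and 73.2 CPM under EPZ005687, which edgeR fitted as -1.26 on the log2 scale (SE 0.579, adjusted p = 0.57). Foxk2, a repressor of autophagy genes that binds the deubiquitinase BAP1, stood at 89.3, 38.1 and 21.3 CPM and at 46.0, 14.3 and 25.1 CPM, fitted as -1.13 (SE 0.640, adjusted p = 0.70). The arms overlapped for both.

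**Figure D2:**
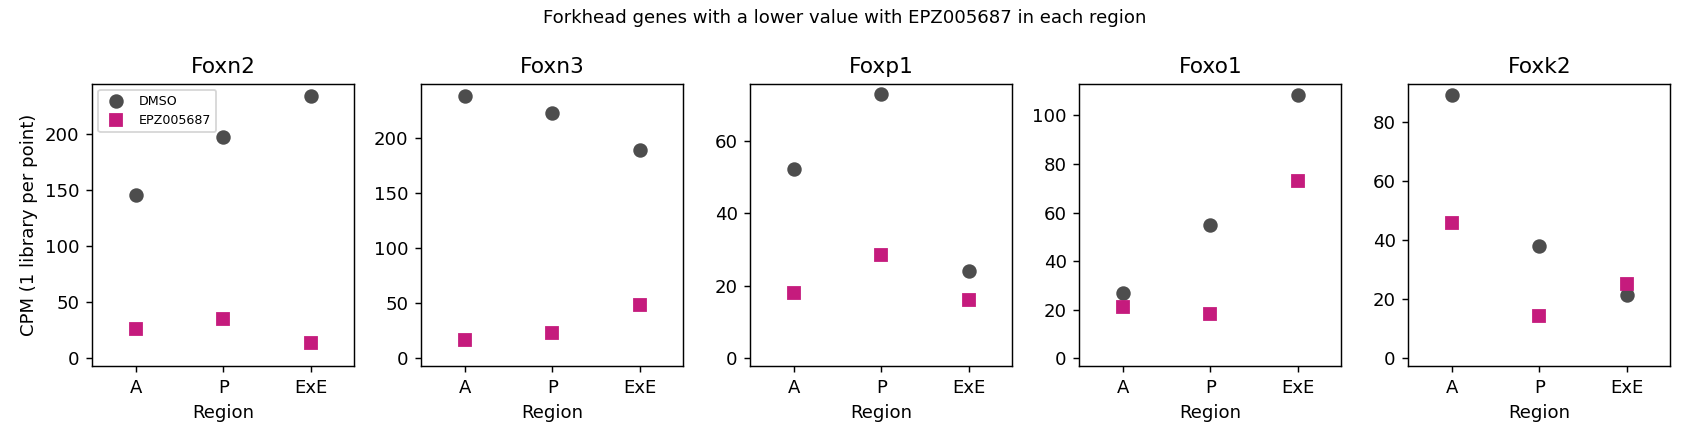
CPM of Foxn2, Foxn3, Foxp1, Foxo1 and Foxk2 by region, 1 library per point, DMSO as grey circles and EPZ005687 as magenta squares, each panel with its own linear axis. Foxn2 (14.0 to 35.4 against 145 to 233 CPM) and Foxn3 (17.0 to 48.6 against 189 to 238 CPM) separate the arms fully, and the other 3 genes do not; Foxk2 in ExE is 25.1 with EPZ005687 and 21.3 CPM under DMSO, and its ratio is below 0 on the TMM scale alone.

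On TMM-scaled CPM (TMM corrects library totals for a shift in composition), all EPZ005687 libraries lay below all DMSO libraries for 3 of 17 members, Foxn2, Foxn3 and Foxp1, where 8.75% of all tested genes did so. They lay above for 0 of 17, where 8.82% of all did. The log2 ratio was below 0 in all 3 regions for 5 of 17 members, Foxk2, Foxn2, Foxn3, Foxo1 and Foxp1, against 15.9% of all tested genes, and above 0 in all 3 for 0 of 17, against 17.3%. The median log2 fold change over the 17 members was -0.23 beside 0.20 over all tested genes. With library totals as the scaling the medians were 0.14 and 0.63, so the sign of the members' median depends on the scaling while both moved by a like amount. The members that could be tested were those with enough reads, and they do not stand for all 44.

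**Figure D3:**
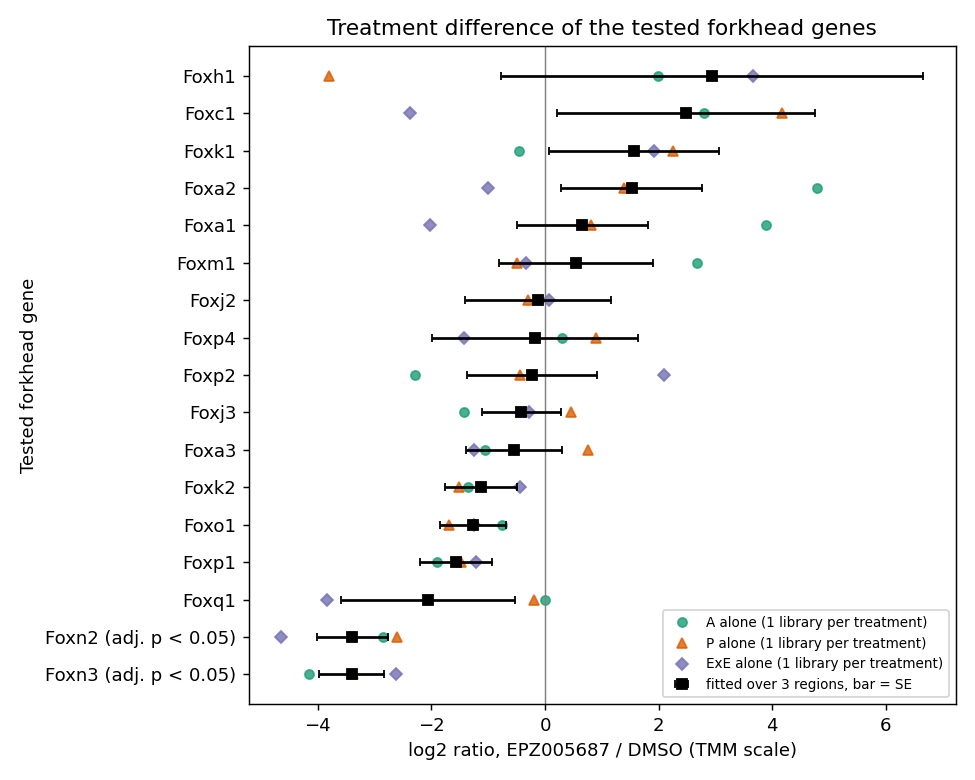
Log2 ratio of EPZ005687 to DMSO (TMM scale) of the 17 tested forkhead genes. Black squares and bars give the edgeR fold change over the 3 regions and its SE, and coloured points give each region alone, with a prior count of 2 that sets the value where a library has 0 counts. Foxn2 (-3.39) and Foxn3 (-3.41) lie apart from zero in every region, and for Foxa1 and Foxa2 the region points spread to both sides of 0.

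The other members with 100 or more counts in all showed no called treatment change. Foxj3 stood at 57.3, 21.1 and 26 CPM under DMSO and at 28.0, 32.2 and 34.1 CPM under EPZ005687 (log2 fold change -0.42, SE 0.701, edgeR adjusted p = 0.92). Foxp2, a relative of Foxp1 with roles in brain and lung, stood at 46.6, 16.1 and 3.61 CPM under DMSO and at 12.0, 12.9 and 28.1 CPM under EPZ005687, so the order of regions differed between the arms. Its log2 ratio was -2.28 in A (interval -3.38 to -1.49) and 2.10 in ExE (1.53 to 3.07), and the edgeR interaction was 3.66 (SE 2.20, adjusted p = 1). Foxm1, which drives genes of the G2 and M phases, stood at 1.12, 9.08 and 10.8 CPM under DMSO and at 15.0, 6.90 and 13.5 CPM under EPZ005687, with overlapping arms.

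Genes tied to these factors were read from fixed lists. Among 13 FOXM1 targets 0 passed in either direction, with a median log2 fold change of -0.15 for the treatment. Among 13 tested FOXO targets 0 passed, with a median of 0.39. Of the FOXO targets Cdkn1b, which encodes the cell cycle inhibitor p27, was at -3.23 on the log2 scale in edgeR (SE 0.766, adjusted p = 0.071). Among 9 genes upstream of FOXO 0 passed, with a median of 0.04. Cdkn1b was picked for naming after their values were seen.

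The second comparison asks how members differed between the posterior and anterior embryonic parts. Foxa1, Foxa2, Foxa3 and Foxq1 were among the members read more in P than in A in both arms, yet none passed the edgeR test. The count was 0 of 17 members, and 0% of all tested genes passed. At an unadjusted p under 0.05, 2 members (Foxa1 and Foxq1) were higher in P and 0 lower, with 4.31% of all tested genes higher. DESeq2 called these 2 members higher, where it called 1.1% of all tested genes higher, and limma-voom called 0 members, with 0.138% of all genes higher.

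Foxa1 (chromosome 12, 57540628 to 57548029), a pioneer factor of endoderm, stood at 0, 49.2 and 55.4 CPM under DMSO and at 14.0, 95.7 and 21.1 CPM under EPZ005687. It was lowest in A in both arms and absent from the reads of the A library with DMSO. With DMSO its CPM was 29.2-fold in P and 32.9-fold in ExE above a floor of 3 counts in the A library. The log2 fold change of P against A was 4.03 (SE 1.36, edgeR adjusted p = 0.64), a value that depends on the prior count since a library is at 0. The DESeq2 adjusted p was 0.044, and without a filter on low counts the edgeR adjusted p was 0.019. With each library left out in turn, Foxa1 passed in edgeR in 4 of 6 cases. Its adjusted p was 0.048 without P DMSO (230 of 13225 genes called), 0.022 without ExE DMSO (96 of 13188), 0.02 without A EPZ005687 (226 of 13558) and 0.033 without ExE EPZ005687 (74 of 12632). It was 1 without A DMSO (0 of 13146) and 1 without P EPZ005687 (16 of 12823). The log2 fold change ran from 2.6 without A DMSO to 11.15 without A EPZ005687.

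Foxa2 (chromosome 2, 148042877 to 148046969), needed for the node, notochord and definitive endoderm, stood at 0, 13.2 and 47.3 CPM under DMSO and at 27, 39.6 and 37.6 CPM under EPZ005687. It too was lowest in A in each arm. With DMSO its CPM was 7.82-fold in P and 28.1-fold in ExE above the same floor in the A library. For ExE against the embryonic parts its log2 fold change was 2.23 (SE 1.22, edgeR adjusted p = 0.86). This value turned on single libraries: it was 5.35 without A EPZ005687 (adjusted p = 0.029, 388 of 13558 genes called), 1.01 without A DMSO (adjusted p = 1), 3.96 without ExE EPZ005687 (adjusted p = 0.25) and -0.18 without ExE DMSO (adjusted p = 1). In A with EPZ005687, where Foxa2 stood at 27 CPM, the streak gene T was also high, and its part in that value was not tested. Foxa3, active in liver and gut, had counts in all 6 libraries, 10.1, 21.7 and 30.6 CPM under DMSO and 6, 41.0 and 20.05 CPM under EPZ005687, and its log2 fold change of P against A was 2.27 (SE 1.06, edgeR adjusted p = 0.91).

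Visceral endoderm markers were lowest in A in both arms, as the Foxa genes were. The 9 markers summed to 77.5, 7500 and 21458 CPM under DMSO and to 3157, 7561 and 13482 CPM under EPZ005687. Afp made up more of the sum than any other marker in every library except A with DMSO. The order of regions matched that of the 3 Foxa genes under DMSO. Under EPZ005687 the marker sum was highest in ExE and Foxa1, Foxa2 and Foxa3 in P. Apoa1, Amn and Hnf4a had 0 counts in the A library with DMSO, as Foxa1 and Foxa2 did. In bulk tissue fewer cells of a type and less RNA per cell cannot be told apart, and the part of endoderm content in the Foxa values was not tested. Of 10 endoderm genes linked to FOXA factors, all 10 had a positive log2 fold change of P against A, with a median of 2.77, and 0 passed. The FOXA-linked genes also serve as markers of endoderm (6 of the 10 are in the marker list), so they are not a separate readout.

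Foxq1 (chromosome 13, 31558170 to 31560976), known for hair shaft differentiation, stood at 0, 16.7 and 39.2 CPM under DMSO and at 0, 16.1 and 3.51 CPM under EPZ005687. Both A libraries had no count, and P was nearly level between the arms. P was 9.91-fold above the floor of 3 counts in A with DMSO and 5.37-fold with EPZ005687. The DESeq2 adjusted p of P against A was 0.019, and the edgeR adjusted p was 0.52. In ExE the log2 ratio of EPZ005687 to DMSO was -3.83 (interval -5.50 to -3.10) and in P -0.19 (-0.85 to 0.43), while the edgeR interaction was -3.95 (SE 2.76, adjusted p = 1).

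On TMM-scaled CPM both P libraries lay above both A libraries for 5 of 17 members, Foxa1, Foxa3, Foxk1, Foxp4 and Foxq1, where 18.9% of all tested genes did so. Both lay below for 1 of 17, Foxj2, against 14.6% of all. The median log2 fold change of P against A was 0.80 over the members and 0.12 over all tested genes.

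**Figure D4:**
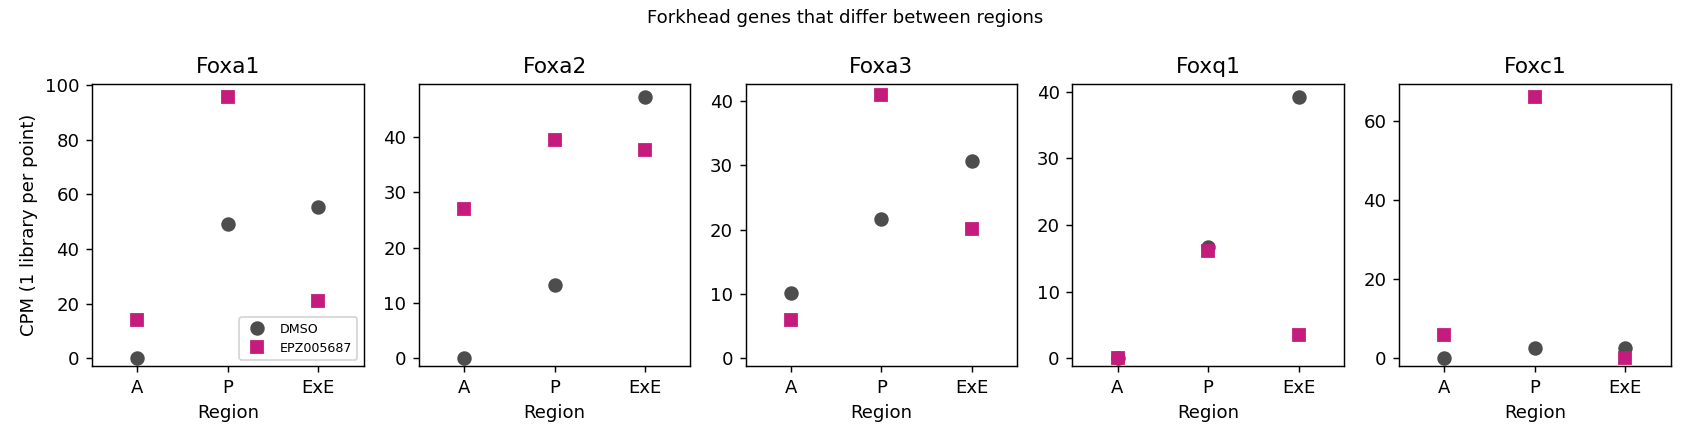
CPM of Foxa1, Foxa2, Foxa3, Foxq1 and Foxc1 by region, 1 library per point, DMSO as grey circles and EPZ005687 as magenta squares, each panel with its own linear axis. The 3 Foxa genes are lowest in A in both arms, Foxq1 has 0 counts in both A libraries, and Foxc1 stands at 66.3 CPM in P with EPZ005687 and at 6 CPM or less elsewhere.

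The third comparison set ExE against the mean of A and P. No member passed, 0 of 17, and 0% of all tested genes did in edgeR. DESeq2 also called 0 members, with 1.76% of all tested genes called, and limma-voom 0, with 0.255%. At an unadjusted p under 0.05, 2 members were higher in ExE (Foxo1 and Foxq1) and 0 lower, with 3.97% of all tested genes higher. Foxo1 (chromosome 3, 52268337 to 52350109) was at 1.72 on the log2 scale (SE 0.575, edgeR adjusted p = 0.51). In CPM both ExE libraries lay above the other 4, but on the TMM scale ExE with EPZ005687 overlapped P with DMSO. On that scale both ExE libraries lay above all A and P libraries for 0 of 17 members, where 7.81% of all tested genes did so, and below for 0 of 17, against 6.85%. The median over the members was -0.13 beside 0.03 over all tested genes.

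The last comparison asks whether the treatment difference in ExE was unlike that in the embryonic parts. Of 17 members 0 passed, where 0.0509% of all tested genes passed (edgeR, adjusted p under 0.05), and DESeq2 (0.116% of all) and limma-voom (0.0437% of all) also called 0 members. At an unadjusted edgeR p under 0.05, the ratio of EPZ005687 to DMSO was lower in ExE than in A and P for 3 members. They were Foxa1, Foxa2 and Foxc1, and 1.2% of all tested genes had such a lower ratio. For Foxa1 the log2 ratio of EPZ005687 to DMSO was 0.80 in P (interval 0.51 to 1.11) and -2.03 in ExE (-2.58 to -1.61). In A, Foxa1 stood at 0 counts with DMSO and 14 with EPZ005687, 8.31-fold above the floor of 3 counts. The interval of its log2 ratio there began at 2.14. For Foxa2 the log2 ratio was 1.39 in P (0.90 to 1.99) and -0.998 in ExE (-1.40 to -0.64). In A, Foxa2 stood at 0 and 27 counts, 16.0-fold above that floor, and the interval of its log2 ratio began at 3.19. The edgeR interaction was -4.32 for Foxa1 (SE 1.81) and -4.12 for Foxa2 (SE 2.03), both with an adjusted p of 1. Visceral endoderm markers summed to 77.5 and 3157 CPM in A, 7500 and 7561 CPM in P and 21458 and 13482 CPM in ExE without and with EPZ005687. They were thus nearly level in P. In A most of the difference in the sum came from Afp, at 5.06 and 2896 CPM, but other markers were higher there with EPZ005687 too. Ttr stood at 2.25 and 120 CPM, Apoa1 at 0 and 19.0 CPM and Rhox5 at 9.55 and 23.0 CPM. Amn and Hnf4a each had 0 and 6 counts. Differences were smaller for Apob at 12.4 and 24.0 CPM, Cubn at 44.9 and 58.0 CPM and Sox17 at 3.37 and 5.00 CPM. The part of endoderm content in the Foxa1 and Foxa2 ratios was not tested.

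Foxc1 (chromosome 13, 31806646 to 31810635), a factor of somites, heart and mesenchyme, had 0, 9 and 15 counts under DMSO and 6, 144 and 0 with EPZ005687. It was high in 1 library alone, P with EPZ005687, at 66.3 CPM, which was 44.1-fold above the floor of 3 counts in ExE of the same arm. The log2 ratio in P was 4.18 (interval 3.54 to 5.66), and the edgeR interaction had an adjusted p of 0.88. Cardiac and lateral mesoderm markers stood apart in the same library, at 1406 CPM against 27.5 to 137 CPM in the other 5. In it Myl7 reached 784 CPM and Actc1 351 CPM, while Nkx2-5 stood at 1.38 CPM. Their part in the Foxc1 value was not tested. Foxc1 lies on chromosome 13 in a cluster with Foxq1 and Foxf2 (31558170 to 31810635). Its neighbour Foxf2, expressed in gut and craniofacial mesenchyme, had 7, 2 and 35 counts under DMSO and 3, 1 and 6 under EPZ005687, so Foxf2 and Foxq1 were highest in ExE with DMSO and Foxc1 in P with EPZ005687.

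Foxh1, the DNA-binding partner of SMAD2 in Nodal signalling, was seen in 3 libraries. It had 0, 31 and 0 counts under DMSO and 3, 0 and 23 counts with EPZ005687. The region that held its reads thus differed between arms. P with DMSO was 6.58-fold above the floor of 3 counts in P with EPZ005687. ExE with EPZ005687 was 22.3-fold above that floor in ExE with DMSO. The ends nearest 0 of the log2 ratio intervals were -2.48 in P and 3.38 in ExE. The sum of 9 blood and endothelium markers differed between the arms in the same direction. Without and with EPZ005687 it was 8399 and 1368 CPM in P and 413 and 34711 CPM in ExE. Most of each sum came from the globin genes Hba-x, Hbb-bh1 and Hbb-y. In P, Gata1 stood at 26.4 and 8.74 CPM and Pecam1 at 37.2 and 10.6. Kdr there stood at 29.9 and 25.3 CPM, Cdh5 at 9.67 and 10.1 and Etv2 at 4.10 and 8.74. Etv2 had 0 counts in both ExE libraries. Tal1, another of the 9, had 0, 148 and 0 counts under DMSO and 1, 0 and 64 under EPZ005687. The Nodal target Mixl1 had 4, 22 and 0 against 1, 0 and 14. The part of blood content in the Foxh1 values was not tested. The edgeR interaction was 8.99 (SE 5.59, adjusted p = 1). Of 6 tested FOXH1 partners and Nodal targets 0 passed for the treatment, with a median log2 fold change of 0.23. The remaining tested members had few reads, Foxj2 at 4.60 to 9.02 CPM, Foxk1 at 1.03 to 21.6 CPM and Foxp4 at 0.501 to 5.52 CPM, with overlapping arms for each.

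Of the 27 members that were not tested, 7 had 10 or more counts in 1 library, and 6 of them are given here. Foxb1, a factor of hypothalamus and neural tube, reached 12 counts in A with EPZ005687. Foxf1, of lateral plate and allantois, reached 22 counts in P with DMSO, and Foxc2, of somites and vessels, 11 in P with EPZ005687. Foxf2 reached 35 counts in ExE with DMSO, and Foxp3, the regulatory T cell factor, 14 in the same library. Foxo4 reached 14 counts in P with EPZ005687. A further 18 members had at most 1 to 9 counts in a library: Foxd1, Foxd2, Foxd3, Foxd4, Foxe1, Foxi1, Foxi2, Foxi3, Foxj1, Foxl1, Foxl2, Foxn1, Foxn4, Foxo3, Foxo6, Foxr1, Foxr2 and Foxs1. Among them were Foxd3, a factor of epiblast and neural crest, with 1 count in all, Foxj1, the factor of motile cilia, and Foxo3, another insulin-regulated member, with 0, 2 and 0 counts under DMSO and 1, 0 and 2 under EPZ005687. Whether strand was used in counting is not given in the sources used here, so reads of Foxd2 and Foxl2 cannot be told apart from those of their antisense partners.

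**Figure D5:**
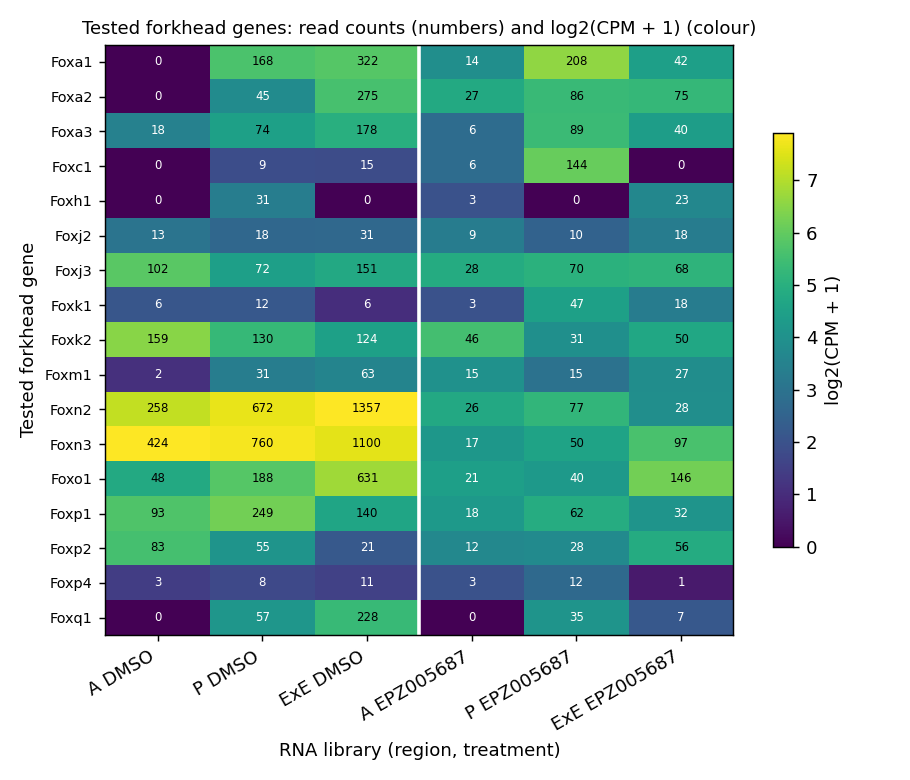
The 17 tested forkhead genes (rows, alphabetical) in the 6 RNA libraries (columns). Numbers are read counts and colour is log2(CPM + 1); Foxn2 and Foxn3 hold the most reads with DMSO, and Foxc1 has 144 counts in P with EPZ005687 and 15 or fewer in the other 5 libraries.

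More members were seen with EPZ005687. With at least 1 count, 20, 29 and 22 of 44 were seen under DMSO for A, P and ExE and 32, 37 and 30 with EPZ005687. Thinned to 1000342 counts, the depth of the shallowest library, the numbers expected were 18.6, 24.5 and 19.0 with DMSO and 32, 32 and 27.1 with EPZ005687, and the arms did not overlap. Over all genes, the share seen was higher under EPZ005687 too, at 60.1%, 67.2% and 55.1% with DMSO and 84.6%, 73.6% and 78% with EPZ005687 at that depth. At full depth, 14 members were seen in A with EPZ005687 alone and 2 with DMSO alone, 31.8% and 4.55%, where all genes gave 23.8% and 2.97%. In P they were 12 and 4 (27.3% and 9.09%, all genes 11.1% and 7.73%), and in ExE 9 and 1 (20.5% and 2.27%, all genes 19.5% and 3.50%). Of the members seen with EPZ005687 alone, Foxa1 and Foxa2 in A and Foxh1 in ExE had 14, 27 and 23 counts with EPZ005687. Those seen in P with EPZ005687 alone had few reads, at most 11 counts (Foxc2), followed by Foxd1 with 9.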

How the data were processed

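The authors deposited a table of whole-number read counts per gene for the 6 RNA libraries, not normalized, as the differing totals show. Build mm10 and the tools BWA, TopHat2 2.0.9 and CASAVA 1.8 are named in the submitters' processing notes. For the counting tool, strand use and annotation, nothing is given in the sources used here. Of 23154 entries 27 held dates in place of symbols (0.162% to 0.961% of counts) and were left out. The other 54 samples were not analysed here.

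A gene was kept if 2 or more libraries held at least 10 counts. After TMM scaling, the quasi-likelihood test of edgeR 4.0.16 (two-sided, in R 4.3.3) was fitted with region and treatment as additive terms. A second fit added a term for EPZ005687 in ExE. Benjamini-Hochberg adjustment ran over all 13744 tested genes, with a threshold of 0.05. Ratios within a region used a prior count of 2. The steps were also run on simulated counts with changes added to chosen genes. Those counts used 1 mean per gene over all libraries and a dispersion estimated from these data. They held no other difference between regions or arms, so they cannot show whether the calls hold in the real design. Alternatives used DESeq2 1.42.0, limma 3.58.1 (voom), library totals, no filter, fewer regions, no region block and each library left out. Members with 100 or more counts in all, or called under any setting, are named with values in every library, and others by range. The members and lists were chosen with earlier results of these data known. Results of 1 family member and of 1 gene upstream of FOXO are not reported here.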

Additional observations from a re-analysis of the deposited data

How the results depend on the processing

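Of the treatment calls, Foxn3 passed under all alternatives run and Foxn2 in all but 3: the count of members called was 2 in the analysis as reported, 1 with A and P only, and 1 to 2 when each library was left out in turn. For ExE against the embryonic parts the count was 0, and 0 to 1 over the left-out libraries. For P against A the count was 0 as reported, 2 with DESeq2, 2 with no filter on low counts, and 0 to 1 over the left-out libraries. The interaction stayed at 0 with library totals, DESeq2, limma-voom and no filter, and was not run with a library left out, which leaves it no residual degrees of freedom. The cause of these moves was not tested. Over all genes, the treatment counts were 203 lower and 7 higher in edgeR, 102 and 7 with library totals, 428 and 144 with DESeq2, 365 and 32 with limma-voom, 322 and 27 with no filter, 83 and 6 with A and P only, and 145 and 6 without the region block. No paired analysis was possible because the RNA libraries carry no replicate numbers; region was the block. Where a region is left with 1 library, that library is assumed to vary like the others. With region as the block, it adds nothing to the treatment difference. Leaving out either ExE library is thus close to using A and P only. The log2 fold change of Foxn2 was -2.75 without ExE DMSO, -2.73 without ExE EPZ005687 and -2.71 with A and P only. These 3 runs are therefore not separate checks. With 1 library per region and treatment and at most 5812535 counts, members with few reads could not be compared.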
